A study of Arabidopsis thaliana with 4 samples.

Results

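Plants move sugar between cells and organs with 3 main families of membrane carriers, and 10 of their genes were followed here in Arabidopsis thaliana seedlings under salt. The genes were set by name and locus rather than by a cut on their values, but with earlier results of these data known. The arrays' probes were assigned to them through the transcript identifier of each probe. All 10 genes were on the arrays, with 14 probes of 43603 in all, and each had a probe that passed the filter on dim spots, which 20412 of 25410 genes on the array did. They were SWEET11 (AT3G48740), SWEET12 (AT5G23660), SWEET13 (AT5G50800), SWEET14 (AT4G25010), SAG29 (AT5G13170, also known as SWEET15), SUC1 (AT1G71880), SUC2 (AT1G22710), STP1 (AT1G11260), STP4 (AT3G19930) and STP13 (AT5G26340).

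As background, SWEET proteins let sugar pass down its gradient in either direction and are known for releasing sucrose or hexoses from cells. SUC proteins (also called SUT) and STP proteins use the proton gradient to take up sucrose and monosaccharides such as glucose, respectively. In a leaf, SWEET11 and SWEET12 release sucrose beside the phloem and SUC2 loads it into the phloem, while STP carriers recover hexoses that reach the cell wall.

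Whole seedlings of the Col-0 accession were used at 14 days after germination, grown at 22 °C in days of 8 h light and 16 h dark on agar with 1.5% sucrose, per the labels. Treated seedlings lay on paper wetted with 300 mM NaCl for 2 h or 5 h, and untreated ones are written 0 h. On each of 4 Agilent arrays with 2 colours, RNA of salt-treated seedlings carried Cy5 and RNA of 0 h seedlings carried Cy3, with 2 arrays for 2 h and 2 for 5 h. The series gives 2 biological replicates, but the labels number only the salt samples, so 0 h was counted as 1 control sample. There was no dye swap, no sample moved to paper without salt, and no stated hour of sampling. Salt as the cause cannot be told apart here from the move off sucrose medium, from the time of day or, at 2 h and 5 h against 0 h, from dye bias. In whole seedlings, fewer cells of a type and less RNA per cell cannot be told apart.

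The value used throughout is the log2 ratio of the processed Cy5 signal over the processed Cy3 signal, so that positive values mean a higher level under salt. Arrays of the same time correlated at r = 0.9816 (2 h) and 0.9871 (5 h) across 20412 genes, which are not independent replicates, and 70.53% to 72.38% of the spots on an array passed Feature Extraction's limit over background. The median log2 ratio of all genes was -0.15 at 2 h and -0.14 at 5 h, and changes are also given relative to it where that matters. As a check of the treatment, 4 known salt-responsive genes were read, which were mixed in direction at 2 h and all higher at 5 h. RD29A, a desiccation-response gene, had a log2 change of 2.1 ± 0.23 (SE) at 2 h and 3.09 ± 0.23 at 5 h. RD29B was at -1.03 ± 0.331 at 2 h (arrays -0.45 and -1.60) and at 2.02 at 5 h, and P5CS1 at 0.17 and 1.95. RAB18, a dehydrin gene, fell by 0.70 on the log2 scale at 2 h and was up by 2.49 at 5 h.

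At 2 h all 10 sugar transporter genes passed limma's test at an adjusted p of 0.05, 4 of them higher and 6 lower. The test called 82.9% of 20410 genes at 2 h, 32.1% higher and 50.8% lower, so passing it says little about a single gene and the size of the change matters more. Of the genes called at 2 h 38.8% were higher, and 50.5% either with each array centred on its median or with the raw spot signals corrected by normexp (a model of the background) and normalized by loess (a curve that removes dye bias that depends on brightness). At least 2-fold changes were 2 higher (SUC1 and STP13) and 2 lower (SWEET13 and SAG29), against 11.9% and 7.59% of all genes. The measured ratio of SWEET14 was past 2-fold as well, but its salt signal was not well above background and allows only a bound of at least 1.16-fold lower. The shares of all genes count measured ratios, dim channels included, and by that rule 3 of the 10 genes were lower by at least 2-fold. The median log2 change of the 10 genes was -0.28 and that of all genes -0.15. By family, the 5 SWEET genes among the 10 were all lower at 2 h, and both SUC genes were higher. Among 9 other SWEET genes tested, 4 were higher and 2 lower, with SWEET10 among the higher ones kept through its salt signal alone. Of the STP genes STP1 and STP13 were higher, while STP4 was lower (-0.16) but at -0.01 relative to the median of all genes.

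At 5 h 8 of the 10 genes passed, 5 higher and 3 lower, where 87.3% of 20412 genes passed, 37.3% higher and 50% lower. At least 2-fold changes were 4 higher (SAG29, SUC2, STP1 and STP13), against 15.5% of all genes, and 1 lower (SWEET13), against 15.3%. SWEET14 again had only a bound, at least 1.15-fold lower. Counted by measured ratios, as in the share of all genes, 2 of the 10 genes were lower by at least 2-fold. The lower calls at both times include STP4, which other scalings lose. The median log2 change of the 10 genes was 0.42 and that of all genes -0.14. From 2 h to 5 h 7 of the 10 genes rose and 0 fell, where 69.1% of 20410 genes were called, 32.6% higher and 36.5% lower. The 10 genes had a median difference of 0.42 between the times, beside -0.03 for all genes. Only SAG29 among them rose by at least 2-fold between the times, a size that 6.01% of all genes reached upward and 6.58% downward.

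**Figure D1:**
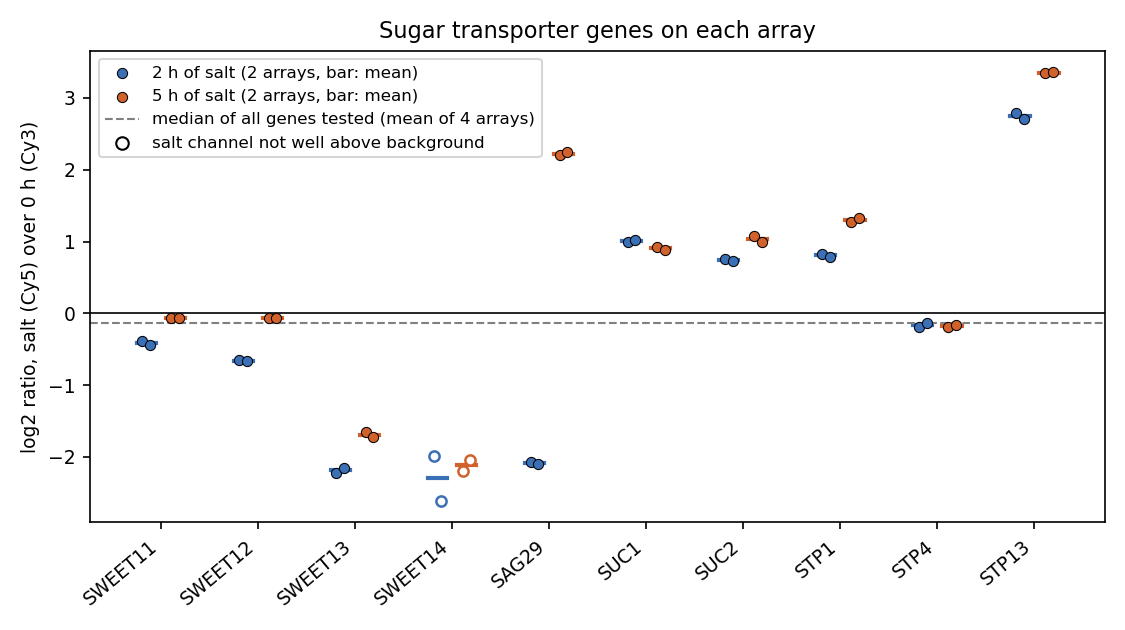
Log2 ratio of salt (Cy5) over 0 h (Cy3) for the 10 sugar transporter genes on each array (blue: 2 h, orange: 5 h; points are arrays and bars are means of 2 arrays), with the median of all genes as a dashed line. SAG29 lies near -2.08 at 2 h and near 2.22 at 5 h, STP13 is the highest at both times, and hollow points mark SWEET14, whose salt signal was not well above background.

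SWEET11 and SWEET12 are close relatives that release sucrose from phloem parenchyma cells for phloem loading. The log2 ratio of SWEET11 was -0.38 and -0.44 on the 2 h arrays and -0.07 and -0.07 on the 5 h arrays. Both 2 h arrays lay below both 5 h arrays. Such a lack of overlap, here and in the genes below, is not read as a result, since its share over all genes is not given here. SWEET11 fell by 0.41 on the log2 scale at 2 h (SE 0.0296, limma adjusted p = 0.000543), or 1.33-fold. At 5 h its change was -0.07 (95% interval -0.15 to 0.01, limma adjusted p = 0.092), and the rise between the times was 0.34 ± 0.0418 (SE, limma adjusted p = 0.00392). A second probe of SWEET11 had changes of -0.54 at 2 h and -0.26 at 5 h, and passed at both times (limma adjusted p = 0.000258 and 0.00152), so the probes differ in their call at 5 h.

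The log2 ratio of SWEET12 was -0.65 and -0.67 on the 2 h arrays and -0.06 and -0.06 on the 5 h arrays. As with SWEET11, the groups did not overlap and the 5 h arrays were close to the level at 0 h. SWEET12 fell by 0.66 at 2 h (SE 0.0263, limma adjusted p = 0.000132), or 1.58-fold. Its change at 5 h was -0.06 (95% interval -0.13 to 0.02, limma adjusted p = 0.102). It rose by 0.60 ± 0.0372 (SE) between the times (limma adjusted p = 0.00081). Relative to the median of all genes, SWEET11 was at 0.07 and SWEET12 at 0.08 at 5 h, on the other side of 0 from their ratios, so neither has a direction at 5 h.

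Markers of the phloem were set beside these genes and SUC2, since their carriers act there. All 5 phloem markers passed at 2 h, all lower, with log2 changes from -0.59 (SEOR1, a sieve element filament protein) to -0.26 (SEOR2), where 82.9% of all genes passed, 50.8% lower, and the median of all genes was -0.15. With normexp and loess SEOR2 was at -0.07 and did not pass (limma adjusted p = 0.103). At 5 h 3 were lower and 2 higher, from -0.77 (PP2-A1, a phloem lectin) to 0.35 (AHA3, a proton pump of companion cells). Of all genes 87.3% passed at 5 h, 37.3% higher and 50% lower. Their summed Cy5 signal over their summed Cy3 signal gave log2 ratios of -0.32 and -0.36 at 2 h and of -0.30 and -0.26 at 5 h, and all 5 were well above background on every array. The part of phloem content in the results for SWEET11, SWEET12 and SUC2 was not tested.

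SWEET13 and SWEET14 belong to the same sucrose-carrying clade and are known to move gibberellin as well. They are close in sequence and no probe sequences were compared, so each is uncertain as a single gene. The processed signal of SWEET13 on the 2 h arrays was 764 and 738 in Cy3 and 164 and 166 in Cy5. On the 5 h arrays it was 953 and 889 in Cy3 and 302 and 269 in Cy5. In each array the salt signal was far below that of 0 h, and both channels were well above background. The log2 ratios were -2.22 and -2.15 at 2 h and -1.66 and -1.72 at 5 h, with no overlap between the times. SWEET13 was 4.55-fold lower at 2 h (log2 change -2.19 ± 0.0358, SE, limma adjusted p = 2.4e-05) and 3.23-fold lower at 5 h (-1.69, limma adjusted p = 2.08e-05). It rose by 0.50 ± 0.0506 from 2 h to 5 h (limma adjusted p = 0.00242). With normexp and loess in place of the processed signals, its log2 changes were -1.54 at 2 h and -1.30 at 5 h, a smaller fold in the same direction.

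SWEET14 was close to the detection limit. Its log2 ratios were -1.98 and -2.61 at 2 h and -2.20 and -2.04 at 5 h, so the times overlapped. The Cy3 signal was well above background on each of the 4 arrays and the Cy5 signal on none, which leaves only a bound for the fold. SWEET14 was at least 1.16-fold lower at 2 h and at least 1.15-fold lower at 5 h. The measured ratios had a limma adjusted p of 0.000558 at 2 h and 0.000539 at 5 h, and the bounds themselves were not tested. SWEET14 passed the filter on dim spots through its 0 h channel alone, which favours a lower call. The bound sets the mean signal of the channel above background, here 0 h, against a floor for the dim channel. On each array the floor was the dim channel's lowest signal among probes well above background, or the probe's own where that was higher. Every bound given here was made so, with the mean salt signal against a 0 h floor where 0 h was dim. Between the times SWEET14 differed by 0.18 (95% interval -0.49 to 0.85, limma adjusted p = 0.528). Its other probe was not well above background in either channel and was not tested.

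SAG29, a sucrose carrier first named as a senescence-associated gene and also active in seed filling, changed direction between the times. Its processed signal on the 2 h arrays was 3196 and 3360 in Cy3 and 761 and 789 in Cy5. On the 5 h arrays it was 4974 and 4638 in Cy3 and 22971 and 21944 in Cy5. The 0 h signal thus lay above the salt signal on both 2 h arrays and far below it on both 5 h arrays. Relative to the median of its channel, the log2 level of SAG29 in Cy3 was 1.3 and 1.35 on the 2 h arrays and 1.44 and 1.45 on the 5 h arrays. In Cy5 the same level was -0.76 and -0.71 at 2 h and 3.67 and 3.74 at 5 h. The turn therefore lay in the salt channel, while the 0 h channel moved little between arrays.

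The log2 ratios of SAG29 were -2.07 and -2.09 at 2 h and 2.21 and 2.24 at 5 h. SAG29 was 4.23-fold lower at 2 h (log2 change -2.08 ± 0.0278, SE, limma adjusted p = 1.78e-05) and 4.67-fold higher at 5 h (2.22 ± 0.0278, limma adjusted p = 1.11e-05). From 2 h to 5 h it rose 19.8-fold (4.31 ± 0.0393, limma adjusted p = 0.000271), the rank 8 rise of 20410 genes. Of 20410 genes 39 were at least 2-fold lower at 2 h and at least 2-fold higher at 5 h. SAG29 was the 1 that was so by at least 4-fold, with AT2G04190 (-2.03 and 1.99) and LTP4 (-1.96 and 2.53) just short of it. With normexp and loess its log2 changes were -1.80 and 2.38, 0 genes reached 4-fold both ways, and 12 reached 2-fold both ways.

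**Figure D2:**
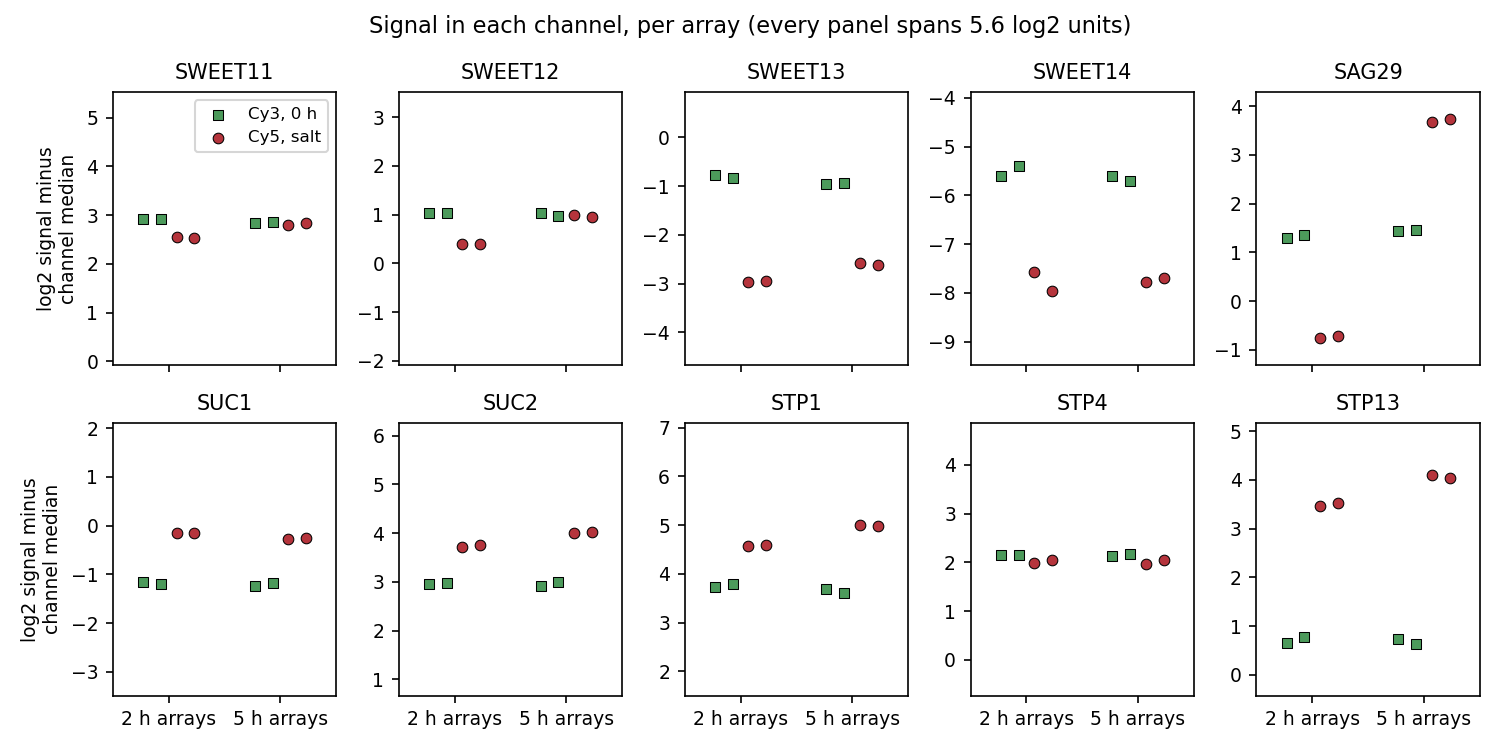
Log2 signal relative to the median of its channel for each sugar transporter gene, with 0 h RNA (Cy3, green squares) and salt RNA (Cy5, red circles) on the 2 h arrays (left in each panel) and the 5 h arrays (right). Every panel spans the same number of log2 units around its own centre, so distances within panels compare but levels of different genes do not. The salt level of SAG29 goes from -0.76 and -0.71 to 3.67 and 3.74 while its 0 h level stays between 1.3 and 1.45.

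SUC1 is a proton-coupled sucrose importer known from pollen, where it serves germination, and from roots. The log2 ratio of SUC1 was 1.00 and 1.02 at 2 h and 0.92 and 0.89 at 5 h. All 4 arrays lay above 0 within a narrow range. SUC1 was 2.01-fold higher at 2 h (log2 change 1.01 ± 0.0275, SE, limma adjusted p = 6.08e-05) and 1.87-fold higher at 5 h (0.90, limma adjusted p = 4.14e-05). The difference between the times was -0.10 (95% interval -0.21 to 0.01, limma adjusted p = 0.0826). SUC1 is close in sequence to SUC5 and is uncertain as a single gene for that reason.

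Pollen markers were set beside SUC1. Of 3, VGD1 and AT5G45880 did not pass the filter on dim spots. PPME1, a pectin methylesterase gene of pollen tubes, was well above background in the salt channel on all 4 arrays and in the 0 h channel on none. PPME1 was at least 1.89-fold higher at 2 h and at least 2.07-fold higher at 5 h. The measured ratios had a limma adjusted p of 0.000157 at 2 h and 7.63e-05 at 5 h, and the bounds were not tested. PPME1 passed the filter on dim spots through its salt channel alone, which favours a higher call, so these p-values are not read as support. The processed signal of PPME1 ranged from 4.87 to 7.27 at 0 h and from 68.4 to 149.8 under salt, and its part in the result for SUC1 was not tested.

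SUC2 is the sucrose importer of companion cells that loads the phloem. The log2 ratio of SUC2 was 0.75 and 0.73 at 2 h and 1.08 and 0.99 at 5 h. Both 5 h arrays lay above both 2 h arrays. SUC2 was 1.67-fold higher at 2 h (log2 change 0.74 ± 0.0336, SE, limma adjusted p = 0.000173) and 2.05-fold higher at 5 h (1.03, limma adjusted p = 4.8e-05). The rise between the times was 0.29 ± 0.0476 (limma adjusted p = 0.00842). A further 2 probes of SUC2 had changes of 0.84 and 1.03 at 2 h and of 1.06 and 1.24 at 5 h. Their rises between the times were 0.22 and 0.21 (limma adjusted p = 0.046 and 0.0277), so all 3 probes of SUC2 had the same direction and call in each comparison. At 2 h the 5 phloem markers above were all called lower, where 50.8% of all genes were, and SUC2 was called higher. With normexp and loess SEOR2 was not called at 2 h (-0.07, limma adjusted p = 0.103). At 5 h AHA3 (0.35) and APL (0.14) were higher and the other 3 lower, where 37.3% of all genes were called higher and 50% lower. The part of phloem content in the result for SUC2 was not tested.

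STP1 is a major importer of glucose into root and guard cells. The log2 ratio of STP1 was 0.83 and 0.79 at 2 h and 1.28 and 1.33 at 5 h. The times did not overlap. STP1 was 1.75-fold higher at 2 h (log2 change 0.81 ± 0.0318, SE, limma adjusted p = 0.000127) and 2.47-fold higher at 5 h (1.31, limma adjusted p = 2.67e-05), and rose by 0.50 ± 0.0449 between the times (limma adjusted p = 0.00181).

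STP4 is a monosaccharide importer known from root tips and pollen and from wounded or infected leaves. The log2 ratio of STP4 was -0.19 and -0.13 at 2 h and -0.19 and -0.16 at 5 h. The times overlapped, and all 4 arrays lay close to the median of all genes. The test gave -0.16 ± 0.0305 (SE, limma adjusted p = 0.00993) at 2 h and -0.17 ± 0.0305 (limma adjusted p = 0.00723) at 5 h. Relative to the median of all genes these are -0.01 and -0.04, and with normexp and loess the value at 2 h was 0.01 (limma adjusted p = 0.906), so STP4 has no direction. The difference between the times was -0.01 (95% interval -0.13 to 0.11, limma adjusted p = 0.823).

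STP13 is a hexose importer known for its rise under salt, abscisic acid and infection. Its processed signal on the 2 h arrays was 2036 and 2269 in Cy3 and 14094 and 14772 in Cy5. On the 5 h arrays it was 3049 and 2636 in Cy3 and 31026 and 27040 in Cy5. The salt signal was several times the 0 h signal on every array. The log2 ratios were 2.79 and 2.70 at 2 h and 3.35 and 3.36 at 5 h, with no overlap. STP13 was 6.71-fold higher at 2 h (log2 change 2.75 ± 0.0344, SE, limma adjusted p = 1.72e-05) and 10.2-fold higher at 5 h (3.35, limma adjusted p = 9.66e-06). It ranked 625 from the highest of 20410 genes at 2 h and 431 of 20412 at 5 h. Between the times it rose by 0.61 ± 0.0487 (limma adjusted p = 0.00138).

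Taken by order over 0 h, 2 h and 5 h, the genes fell into a few patterns. STP13, STP1 and SUC2 were lowest at 0 h, higher at 2 h and highest at 5 h, and each step passed the test. SUC1 was higher at both times than at 0 h, with no difference shown between 2 h and 5 h. SWEET13 was lowest at 2 h, between at 5 h and highest at 0 h. SWEET11 and SWEET12 were lowest at 2 h. Between 5 h and 0 h SWEET12 showed no difference, while for SWEET11 the call and its direction depended on the probe and the normalization (0.12 with normexp and loess, limma adjusted p = 0.00946). SAG29 alone of the 10 was lowest at 2 h and highest at 5 h.

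**Figure D3:**
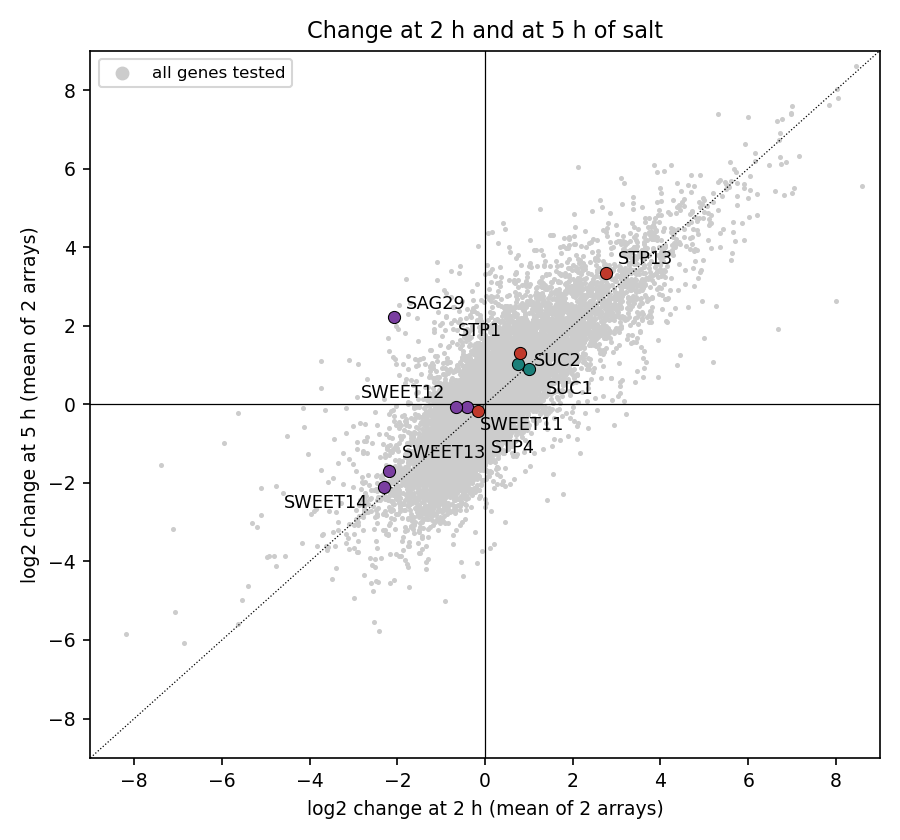
Log2 change at 2 h (horizontal) against log2 change at 5 h (vertical), each the mean of 2 arrays, for all genes tested (grey) and the 10 sugar transporter genes (purple: SWEET, green: SUC, red: STP), with equal change as a dotted line. Both axes share the 0 h channel, so the slope of the cloud is not read as a result. SAG29 lies at the upper left edge of the cloud at -2.08 and 2.22, and STP13 lies at 2.75 and 3.35.

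The genes whose log2 ratios over the 4 arrays lay nearest to those of SAG29, SUC2 and STP13 were found by Euclidean distance. For SAG29 they were LTP4, a lipid transfer protein gene, at a distance of 0.466, AT3G17520 at 0.478, AT2G04190 at 0.581, the seed maturation protein gene SMP1 at 0.751 and ABCF2 at 0.758. LTP4, whose probe may share signal with its close copy LTP3, had mean log2 ratios of -1.96 at 2 h and 2.53 at 5 h. For STP13 the nearest were AT3G11325 at 0.132, AT1G66760 at 0.173, scpl30 at 0.201, AT4G22530 at 0.204 and PROPEP3, the precursor gene of an immune signal peptide, at 0.207. For SUC2 they were FPA, a flowering regulator gene, at 0.0545, AT4G19450 at 0.0604, AT5G66580 at 0.0695, the ceramide synthase gene LOH2 at 0.0809 and the vacuolar water channel gene TIP2;2 at 0.0824.

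The rest of each family was listed as well. Of 12 other SWEET genes 9 were tested, since SWEET5, SWEET7 and SWEET9 were too dim. At 2 h 4 were higher and 2 lower, with a median log2 change of 0.25, and at 5 h 5 were higher and 2 lower, with a median of 1.61. These 6 and 7 of 9 called stand beside 82.9% and 87.3% of all genes. The 4 higher at 2 h include SWEET10, which passed the filter on dim spots only through its 2 h salt channel, which favours a higher call. The 5 higher at 5 h include SWEET6 and SWEET8, which were near background. SWEET2, a vacuolar glucose carrier of roots, rose by 0.80 ± 0.0733 (SE) at 2 h and by 2.47 at 5 h, and SWEET4, a hexose carrier, by 0.19 ± 0.0263 and 2.31. The glucose carrier SWEET1 was at -0.02 at 2 h (limma adjusted p = 0.525) and rose by 1.63 ± 0.0386 from there to 5 h. SWEET17, a vacuolar fructose carrier, fell by 0.70 ± 0.0305 at 2 h and was lower by a log2 change of -0.53 at 5 h.

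Some other SWEET genes were near background. SWEET10, a sucrose carrier of the clade that holds SWEET11 to SAG29, was at least 2.05-fold higher at 2 h, with 0 h not well above background, and at 5 h neither channel was. SWEET6 was at least 1.25-fold higher at 5 h. SWEET8, known from pollen formation, had log2 ratios of 4.37 and 1.34 on the 5 h arrays, a spread that gives a mean of 2.85 with an SE of 0.776 (limma adjusted p = 0.0271), and with normexp and loess it was 0.89. SWEET3 had a change of -0.69 ± 0.22 at 2 h (limma adjusted p = 0.0442), and with normexp and loess -0.08 (limma adjusted p = 0.37).

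Of 7 other SUC genes 4 were tested and all 4 were higher at both times, with median log2 changes of 1.34 at 2 h and 2.01 at 5 h, where 32.1% and 37.3% of all genes were called higher. SUC4, which lets sucrose out of the vacuole, rose by 1.44 ± 0.0344 (SE) at 2 h and 1.99 at 5 h. SUC3, a low-affinity carrier of sieve elements and wounded tissue, rose by 1.2 ± 0.0608 and 0.95. SUC7 rose by 1.24 ± 0.0629 and 2.02 but belongs to a group of near-identical genes, SUC6 to SUC9, and is uncertain as a single gene. SUC5, a carrier of the seed, had a change of 2.68 ± 0.0634 at 2 h, 0.94 with normexp and loess, and was at least 2.86-fold higher at 5 h.

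Of 11 other STP genes 5 were tested, and at 2 h all 5 were lower, with a median log2 change of -1.04. Of all genes 82.9% were called at 2 h, and 50.8% were called lower. At 5 h 4 were lower and 1 higher, with a median of -0.55. Of all genes 87.3% were called at 5 h, 37.3% higher and 50% lower. The median of all genes was -0.15 at 2 h and -0.14 at 5 h. STP14, a galactose importer, fell, with log2 changes of -1.71 ± 0.0364 (SE) at 2 h and -1.92 at 5 h. STP7, an importer of the wall sugars arabinose and xylose, fell too (-1.21 ± 0.0283 and -0.80). The carrier genes AT5G61520 (-1.04 ± 0.0366 and -0.54) and AT1G34580 (-0.57 ± 0.0431 and -0.55) were lower as well. STP12 was lower at 2 h (-0.40 ± 0.0458) and higher at 5 h (0.24), a difference of 0.64 ± 0.0647 (limma adjusted p = 0.0024).

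**Figure D4:**
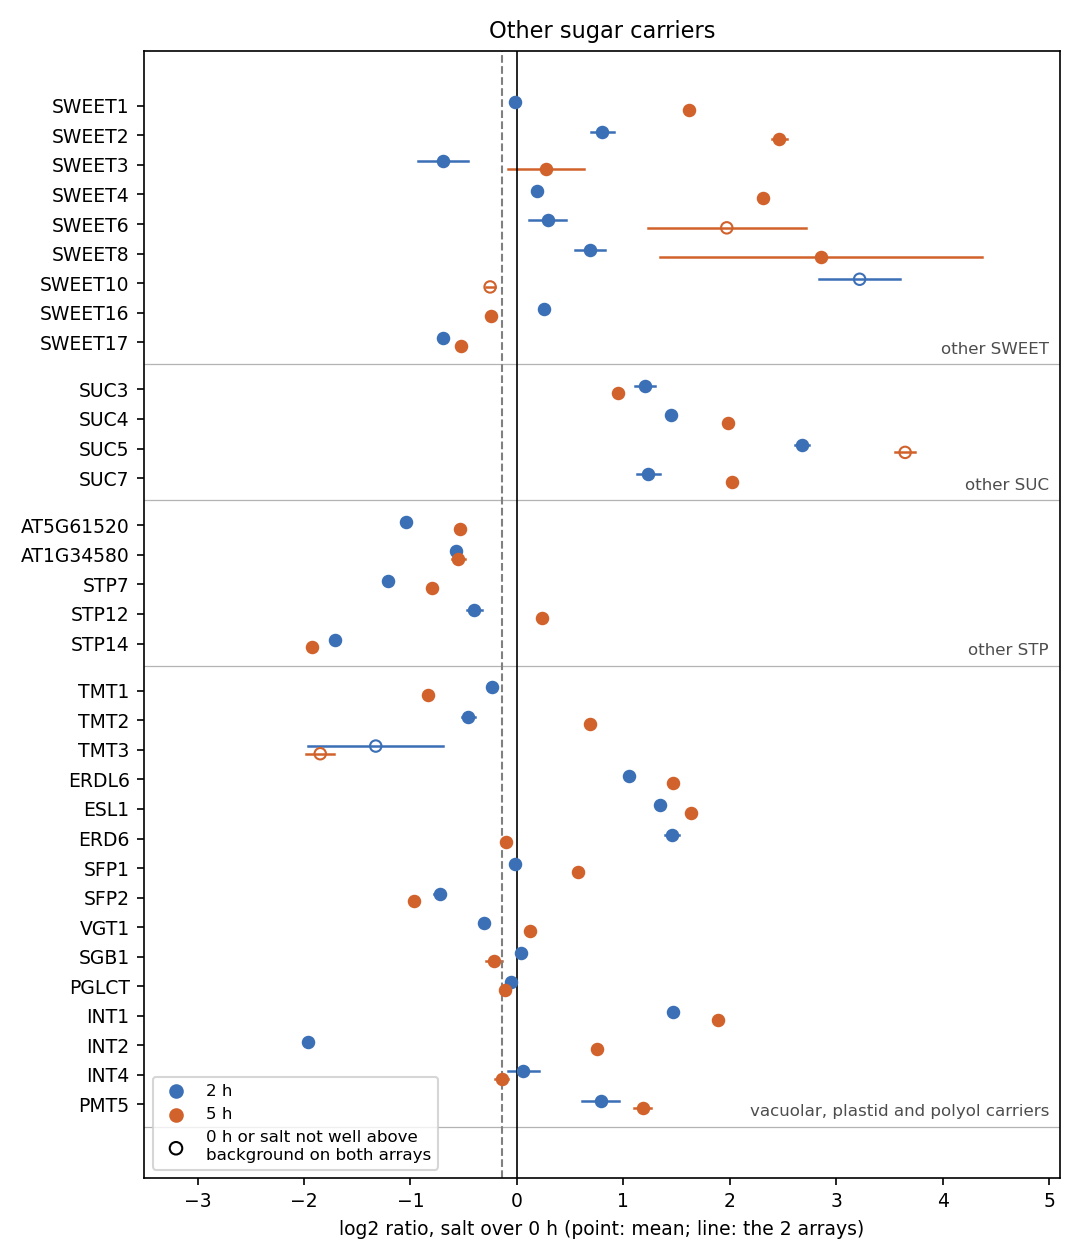
Log2 ratio of salt over 0 h for the other tested sugar carriers by family (blue: 2 h, orange: 5 h; points are means, lines join the 2 arrays, and the dashed line is the median of all genes). Hollow points mark genes with a channel that was well above background on neither array of that time. The 4 other SUC genes all lie at 0.95 or above, while the other STP genes lie below 0 except STP12 at 5 h.

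Carriers of the vacuole, of plastids and of polyols were the next list, with 15 of 16 genes tested. At 2 h 5 were higher and 6 lower, and at 5 h 8 were higher and 5 lower, with medians of -0.01 and 0.13, and the share called was no higher than that of all genes (82.9% and 87.3%). ERDL6, which exports glucose from the vacuole, rose by 1.05 ± 0.0279 (SE) at 2 h and 1.46 at 5 h, and ESL1, a related vacuolar exporter known from drought, by 1.35 ± 0.0258 and 1.64. TMT2, which imports sugar into the vacuole, was lower at 2 h (-0.45 ± 0.0429) and higher at 5 h (0.69), and its relative TMT1 was lower at both (-0.23 ± 0.0279 and -0.84). TMT3 was at least 1.1-fold lower at 5 h. Its call at 2 h was lost with normexp and loess (-0.17, limma adjusted p = 0.0799).

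ERD6, an early dehydration gene of the same carrier family, rose by 1.46 ± 0.0475 (SE) at 2 h and was at -0.10 at 5 h (limma adjusted p = 0.116). INT1, which exports inositol from the vacuole, rose by 1.47 ± 0.0265 and 1.89. INT2, an inositol importer of the plasma membrane, was, like SAG29, lower at 2 h and higher at 5 h. It fell by 1.96 ± 0.027 at 2 h and was higher by 0.75 at 5 h, a rise of 2.71 ± 0.0382 between the times (limma adjusted p = 0.000271).

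Of 19 genes for enzymes that make and split sucrose, 18 were tested. At 2 h 9 were higher and 6 lower and at 5 h again 9 were higher and 6 lower, with medians of 0.22 and 0.11. The share called was near that of all genes, 82.9% at 2 h and 87.3% at 5 h. SUS1, a sucrose synthase that splits sucrose, rose by 2.06 ± 0.0341 (SE) at 2 h and 4.50 at 5 h. SUS4 rose by 1.79 ± 0.0417 and 1.71, SUS6 by 1.18 ± 0.0517 and 1.73, and SPS2F, a sucrose phosphate synthase, by 1.43 ± 0.0437 and 2.60. SUS3 fell by 0.97 ± 0.0434 at 2 h and was higher by 1.74 at 5 h, so it too was lower first and higher later. SPS4F was at -0.10 at 2 h (limma adjusted p = 0.0523) and fell by 1.48 ± 0.0334 at 5 h, and CWINV5, a cell wall invertase, was at least 1.74-fold lower at 2 h.

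Markers of leaf and root were set beside the 10 genes, since whole seedlings hold both. Beside the counts below, 82.9% of all genes were called at 2 h (32.1% higher, 50.8% lower) and 87.3% at 5 h (37.3% higher, 50% lower). Of 5 leaf markers 2 were higher and 1 lower at 2 h, and 2 were higher and 2 lower at 5 h. With normexp and loess GAPB, the lower one at 2 h, did not pass (-0.09, limma adjusted p = 0.199), while LHCB1.3 did (0.15, limma adjusted p = 0.00409). The summed signal of the leaf markers under salt over 0 h had log2 ratios of 0.02 and 0.04 at 2 h and -0.14 and -0.13 at 5 h. The largest change among them was that of CA1, a carbonic anhydrase, which fell by 1.17 ± 0.0367 (SE) at 5 h. RBCS1A (0.19 ± 0.0388 at 2 h and 0.21 at 5 h) and RCA (0.21 ± 0.0276 and 0.09) were the 2 higher ones at both times. Of 5 root markers 2 were higher and 3 lower at 2 h, and 1 was higher and 3 lower at 5 h, with log2 ratios of the summed signal of -0.57 and -0.61 at 2 h and of -1.84 and -1.90 at 5 h. CASP1, of the root endodermis, fell at both times (-0.81 ± 0.0422 and -2.32), as did COBL9, of root hairs (-1.04 ± 0.121 and -2.27), and EXPA7, of root hairs, was at least 3.23-fold lower at 5 h. IRT1, the root iron importer, was higher at both times (3.45 ± 0.202 and 2.68). RHD6 was higher at 2 h (0.31 ± 0.0342) and at -0.08 at 5 h (limma adjusted p = 0.081). With normexp and loess IRT1 was at 2.04 and 1.55, and COBL9 at 5 h at -1.50. Every marker of both lists gave a clear signal in Cy3 and Cy5 on the 4 arrays, except EXPA7 under salt at 5 h, which was near background, and their part in the results for the sugar transporter genes was not tested.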

How the data were processed

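The deposited array files hold, per the file headers, Cy3 and Cy5 intensity that Agilent Feature Extraction had cleared of background and normalized between the dyes, beside raw median intensity of spot and background. They also hold the log10 ratio of the processed channels, per the file headers, which served only to check the ratio. Its version is 11.5.1.1 in the headers but 9.3.2.1 per the submitters' processing notes. Values of the deposited series table are log2 ratios in the same direction as the processed intensities (r of 0.9998 or more on each array). Over the genes tested they were shifted by a median of 0.0858 to 0.118. The column medians, taken over all probes, were 0.143, 0.14, 0.0533 and 0.18. The basis for centring that series table is not stated in the sources used here.

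From these files the log2 ratio of processed Cy5 over Cy3 was computed. Control spots were dropped, as were the 14 to 19 outlier spots of an array, and repeat spots of a probe were averaged. Of 43603 probes, 34348 had a RefSeq transcript and 1 gene in a TAIR10.1 table that gave names and no positions, the arrays being annotated on an older release. A probe was kept if its Cy3 signal stood well above background on 2 or more arrays, or for 1 of the times on both of its Cy5 channels; 28307 probes passed. A gene with several such probes was read from the brightest, and a ratio was missing for 3 genes, so 20412 genes were tested at 5 h and 20410 in the other comparisons. All 4 arrays entered 1 fit in limma 3.58.1 (R 4.3.3; 2 residual and 1.84 prior degrees of freedom), with Benjamini-Hochberg adjustment over all genes at 0.05, two-sided. SE and 95% intervals are limma's and pool the spread of both times; they leave out the spread of the control. Bounds for dim probes were computed on normalized channel values after normexp (offset 50), loess and scaling between arrays. The fit was run on simulated data with independent noise. That noise held no error of the control sample or the dyes, so the run cannot speak to either. The number of arrays limits the precision.

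The sugar transporter genes and the other lists were chosen with earlier results of these data known, so no list was tested. Named genes were every one of the 10 genes; of each other list those called with the largest change, up to 4 per comparison; and the 5 nearest genes of SAG29, SUC2 and STP13. Same-numbered arrays deviated together at r = 0.09394 across genes, so the replicate numbers were not taken as pairs. A planned search of promoters was not run, since no sequences were used here.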

Additional observations from a re-analysis of the deposited data

Results flagged for a closer look

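The change against 0 h differed between 5 h and 2 h, by limma's test of the difference itself, in 7 of the 10 sugar transporter genes, about the share of all genes (69.1%). The difference of 5 h minus 2 h on the log2 scale was 4.31 in SAG29, where the sign turned from lower to higher. It was 0.61 in STP13, 0.50 in STP1 and 0.29 in SUC2, which were higher at both times. It was 0.60 in SWEET12 and 0.34 in SWEET11, whose values at 5 h have no settled direction. In SWEET13, lower at both times, it was 0.50. Gene-specific dye bias drops out of these differences.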

How the results depend on the processing

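Between settings, the number of genes called ranged from 15305 to 16930 at 2 h, from 16077 to 17977 at 5 h and from 11186 to 14796 in 5 h against 2 h. Between 9 and 10 sugar transporter genes were called at 2 h, 7 to 9 at 5 h and 7 to 8 in 5 h against 2 h. Leaving out 1 array gave 15305 to 16293, 16077 to 17847 and 11186 to 12615 genes, with a time's lone array assumed to vary like those of the other time. The share of higher genes among those called at 2 h was 38.8%, and 50.5% with normexp and loess, 50.5% with each array centred on its median and 48% with the deposited series table. At 5 h these shares were 42.7%, 50.2%, 50% and 47.7%.

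At 5 h the change of SWEET11 was 0.123 with normexp and loess (limma adjusted p = 0.00946), 0.0653 with centring and 0.0222 in the deposited table, against -0.16 with the mean of its probes and -0.26 with its second probe. That of SWEET12 was 0.0736 with normexp and loess, 0.0755 with centring and 0.0325 in the deposited table. The 2 h change of STP4 was 0.00594 with normexp and loess, -0.02 with centring, -0.04 in the deposited table and -0.13 without 2 h replicate 1 (limma adjusted p = 0.0604). Its 5 h call was likewise lost with those settings (-0.00316, -0.04 and -0.08) and without either 5 h array (-0.16 and -0.19). Between the times STP4 ranged from -0.0404 to 0.0170 when an array was left out. SWEET14 between the times was -0.0315 with normexp and loess, -0.13 without 2 h replicate 2 and 0.50 without 2 h replicate 1 (limma adjusted p = 0.0332), so 1 array decides that call. Apart from the centring itself, whose construction shifts all ratios by the median of all genes, the cause was not tested. In the other 6 sugar transporter genes, no setting turned a direction or ended a call.

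With the replicate number as a block, 14042 genes and 7 sugar transporter genes were called in 5 h against 2 h, and no call of those genes changed. The numbers share too little to be read as pairs (r = 0.09394). Keeping only probes bright on all arrays left 9 of the 10 genes, without SWEET14. A slide or scan block was not run because all arrays lay on 1 slide. Signals near background limit SWEET14, SWEET10, SWEET6, SWEET8, SUC5 and TMT3 most.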
